A study of Homo sapiens with 2 samples.

Results

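Expression of the proteasome genes was described in 2 replicate libraries of an engineered U2OS line (U2OS cells derive from a human osteosarcoma). The set was taken by gene symbol: every symbol made of PSMA, PSMB, PSMC, PSMD, PSME, PSMF or PSMG and a digit, and POMP, found in both gene tables, with pseudogenes and antisense genes left out. The rule gave 51 genes of the 28236 named genes in both tables. They were grouped by textbook role into 7 alpha and 7 beta subunits of the 20S core, 3 immune beta subunits, 9 base and 8 lid subunits of the 19S cap, 5 activators and inhibitors, and 8 assembly chaperones. The other 4 were the germ-line subunit gene PSMA8, the thymus subunit gene PSMB11, and PSMC3IP and PSME3IP1, which are named for a partner and are not subunits. The symbol rule does not use the levels, but the members were chosen with earlier results of these data known.

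The cells carry a G1S cell cycle phase marker (written G1S-CCPM in some labels and G1S-CCMP in others) and stably make the Cas9 nuclease from a CAG promoter, a strong promoter that is active in most cell types. They were left untreated, in McCoy's 5A medium to which serum, glutamine and geneticin were added, and poly(A) RNA was sequenced with a directional kit. The design thus held 1 group and no contrast, and no line without the marker or without Cas9 was analysed here. No label says that the replicates came from different cultures, and their spread may therefore be technical only. The authors' deposited unit is FPKM, fragments per unit of transcript length and of library size, which allows genes to be compared per length within a library. The bounds quoted beside them are the deposited confidence bounds of each library, which do not cover the spread between libraries. Each mean ± SD is over n = 2 libraries.

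The proteasome is the protease that degrades proteins tagged with ubiquitin. Its barrel-shaped 20S core is built of alpha rings, which gate the entry, and beta rings, which carry the proteolytic sites of PSMB5 (chymotrypsin-like), PSMB6 (caspase-like) and PSMB7 (trypsin-like). The 19S cap has a base, with a ring of ATPases that unfolds the substrate, and a lid, whose subunit PSMD14 removes ubiquitin. Cells exposed to interferon gamma, and many blood cells without it, replace the proteolytic subunits with PSMB8, PSMB9 and PSMB10, and make more of the PA28 activator formed by PSME1 and PSME2, which together favour the peptides shown on MHC class I molecules. The transcription factor NFE2L1 raises the subunit genes together when proteasome activity falls.

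The start regions of the interferon-linked genes and of 1 constitutive counterpart, PSMB5, are shown because these genes differ in how they are induced. In level the immune subunits were below PSMB5 in both libraries, whereas PSME2 (121 and 112) was near PSMB5 (136 and 102). Each run holds 250 bases before to 50 bases after the gene's start (RefSeq, GRCh38.p14, printed 5′ to 3′ on the gene's own strand), and capitals mark a match on either strand to the core of the interferon-stimulated response element (GAAA, then any 2 bases, then GAAA). Where the table held 2 windows for a gene, as for PSMB8 and PSMB5, the shown one starts nearest to the transcript with the most FPKM, and a gene was counted as holding a motif if any of its windows did. PSMB8 lies at chr6:32843998-32844297 (minus strand), PSMB9 at chr6:32853942-32854241 (plus), PSMB10 at chr16:67936801-67937100 (minus), PSME1 at chr14:24135944-24136243 (plus), PSME2 at chr14:24146561-24146860 (minus) and PSMB5 at chr14:23035171-23035470 (minus).
PSMB8: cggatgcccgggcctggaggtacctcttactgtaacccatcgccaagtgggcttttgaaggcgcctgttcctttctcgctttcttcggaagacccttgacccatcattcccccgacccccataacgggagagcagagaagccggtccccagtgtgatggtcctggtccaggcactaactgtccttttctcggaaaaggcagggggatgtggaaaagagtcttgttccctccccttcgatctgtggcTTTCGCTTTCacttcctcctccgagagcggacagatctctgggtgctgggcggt
PSMB9: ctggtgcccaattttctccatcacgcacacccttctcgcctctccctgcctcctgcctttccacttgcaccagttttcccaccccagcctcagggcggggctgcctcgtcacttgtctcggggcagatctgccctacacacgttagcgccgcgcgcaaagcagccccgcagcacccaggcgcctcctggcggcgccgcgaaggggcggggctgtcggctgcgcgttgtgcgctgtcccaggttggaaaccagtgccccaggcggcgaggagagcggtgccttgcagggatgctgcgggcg
PSMB10: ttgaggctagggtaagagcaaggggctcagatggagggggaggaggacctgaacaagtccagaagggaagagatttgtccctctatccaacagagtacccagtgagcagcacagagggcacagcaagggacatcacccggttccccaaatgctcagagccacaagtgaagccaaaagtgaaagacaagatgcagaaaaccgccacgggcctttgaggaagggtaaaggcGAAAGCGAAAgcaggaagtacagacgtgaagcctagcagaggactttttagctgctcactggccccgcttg
PSME1: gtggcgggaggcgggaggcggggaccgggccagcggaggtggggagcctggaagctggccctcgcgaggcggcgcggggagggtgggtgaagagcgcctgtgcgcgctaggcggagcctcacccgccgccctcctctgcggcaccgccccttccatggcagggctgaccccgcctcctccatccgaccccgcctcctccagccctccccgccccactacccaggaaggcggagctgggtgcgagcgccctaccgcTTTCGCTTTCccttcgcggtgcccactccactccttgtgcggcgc
PSME2: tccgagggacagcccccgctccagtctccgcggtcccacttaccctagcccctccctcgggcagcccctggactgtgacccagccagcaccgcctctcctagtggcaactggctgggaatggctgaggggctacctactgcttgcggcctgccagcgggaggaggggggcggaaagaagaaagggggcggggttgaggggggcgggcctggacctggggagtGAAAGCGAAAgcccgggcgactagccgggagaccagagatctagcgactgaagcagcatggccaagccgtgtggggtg
PSMB5: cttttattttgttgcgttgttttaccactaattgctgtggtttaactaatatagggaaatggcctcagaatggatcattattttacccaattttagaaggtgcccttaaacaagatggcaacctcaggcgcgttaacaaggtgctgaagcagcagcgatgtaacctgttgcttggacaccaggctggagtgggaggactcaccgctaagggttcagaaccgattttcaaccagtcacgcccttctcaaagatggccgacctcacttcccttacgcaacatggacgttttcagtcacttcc

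The core was found in the windows of PSMB8, PSMB10, PSME1 and PSME2, and its letters were not in those of PSMB9 or PSMB5. RefSeq windows were at hand for 45 of the 51 genes, and none for PSMA7, PSMB1, PSMB6, PSMB7, PSMD4 and PSMG3. Among the 45, 7 (15.6%) held this core, beside 4.38% of all 27305 genes with windows. The other 3 of the 7 were PSMA4, PSMB4 and PSMG4. TGACNNNGC, the core of the element that NFE2L1 binds, was in 15 of 45 (33.3%), beside 16.1% of all genes. CCAAT, the NF-Y box, was in 22 (48.9%, beside 39.7%), and TTCNNNGAA, the gamma-activated site, in 8 (17.8%, beside 9.38%). Both strands were searched and motifs were counted on their own, whatever they overlapped. These are letter matches, and no binding was measured.

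Nearly the whole proteasome was expressed. Of the 50 genes with a usable status in both libraries, 48 stood at FPKM 1 or more in both, against 41.8% of all named genes, and 46 of them were above the median of the detected genes (11.9 in replicate 1 and 11.5 in replicate 2). The exceptions at the low end were PSMA8, listed at 0 in both libraries, and PSMB11, at 0.00774 in replicate 1 and listed at 0 in replicate 2. These are the subunits that textbooks place in the germ line and in the thymic cortex. Germ-line markers were under FPKM 1 as well, with SYCP3 listed at 0 and DDX4 at 0.0291 and 0.0121. An entry of 0 may not mean that no RNA was present: SYVN1, a ubiquitin ligase gene of the endoplasmic reticulum used by many cell types, was also listed at 0 in both libraries. Together the 50 genes made up 0.902% (replicate 1) and 0.874% (replicate 2) of the FPKM summed over named genes.

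PSME3IP1, a partner of PSME3 that the files list as FAM192A, had a failed status in replicate 1 and was left out of every count of levels, ratios and transcripts. PSMC3IP, which takes part in meiotic recombination, was at 19.2 and 17.5 in the 2 libraries.

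**Figure D1:**
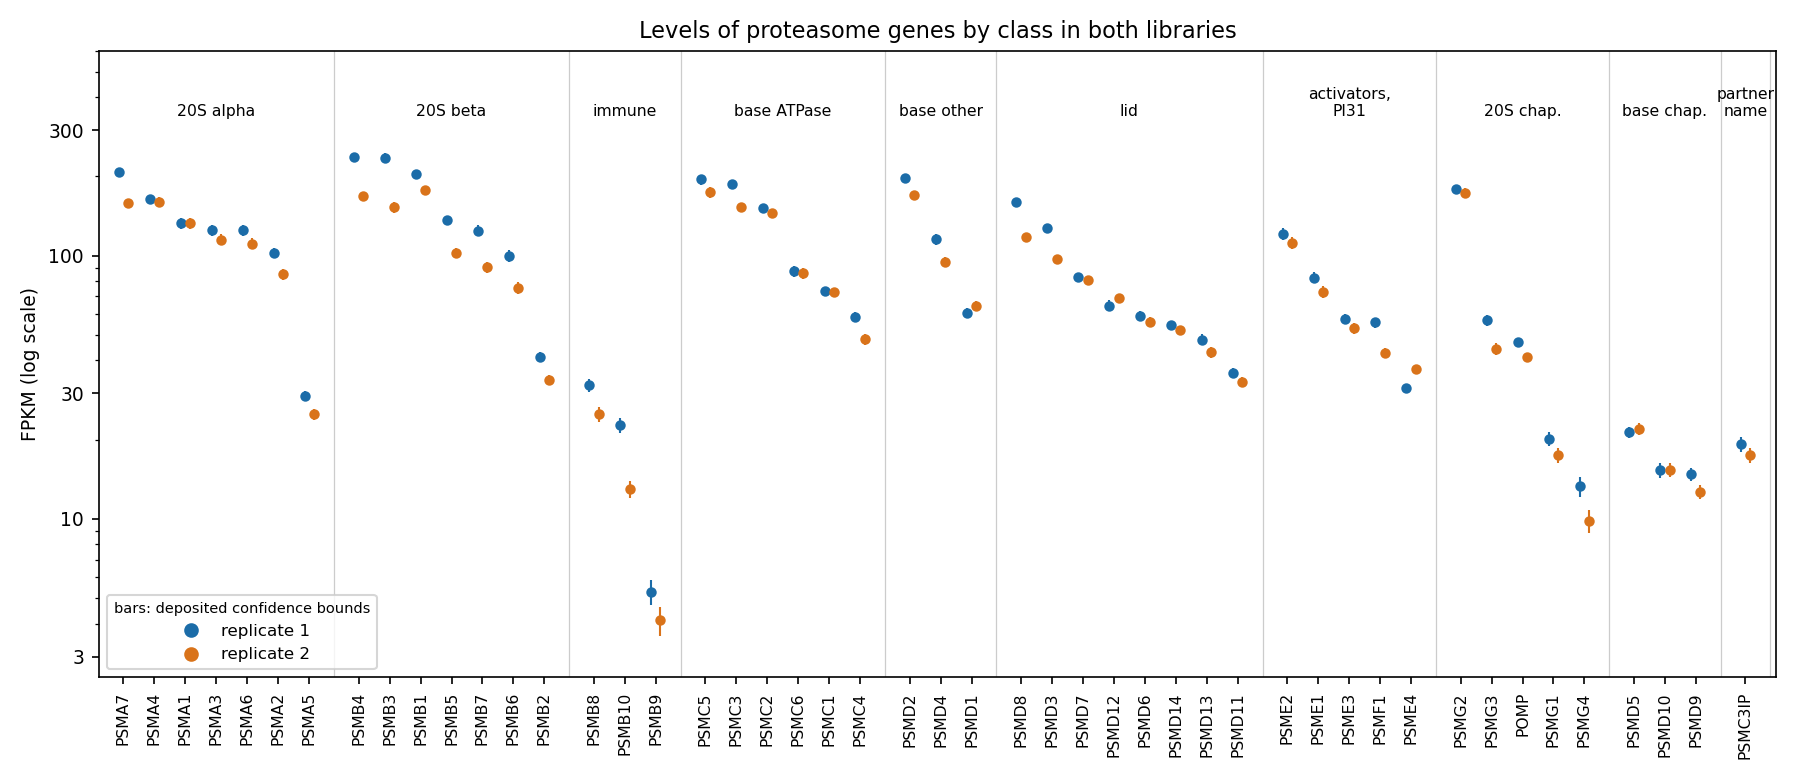
FPKM on a log axis of the 48 genes at FPKM 1 or more, by class and in order of mean level, with replicate 1 in blue, replicate 2 in orange and the deposited confidence bounds as bars. The 3 immune subunits sit below the 7 constitutive beta subunits in each library, and PSMG2 stands apart from the other chaperones at 179 and 173.

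The median of the 7 constitutive alpha genes was 125 (replicate 1) and 115 (replicate 2). PSMA7, at 207 and 158, was highest in replicate 1, and PSMA4, at 164 and 160, in replicate 2. PSMA1, at 132.8 in both libraries, PSMA3 (125 and 115) and PSMA6 (125 and 111) lay in the middle of the ring. PSMA2 stood at 102 and 84.99. PSMA5 was far below its ring partners, at 29.3 and 24.9, although the ring holds all alpha subunits in equal number. The highest and lowest gene of the ring thus differed 7.07-fold in replicate 1 and 6.42-fold in replicate 2.

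The constitutive beta ring had a similar median, 136 and 102. Its non-proteolytic genes PSMB4 (238 and 168), PSMB3 (235 and 153) and PSMB1 (204 and 177) were its highest in both libraries. The proteolytic subunits came next. PSMB5, the target of bortezomib, stood at 136 and 102, PSMB7 at 125 and 90.3 and PSMB6 at 100.006 and 75.6. PSMB2, also non-proteolytic, was lowest, at 41.3 and 33.8. The gene order within the ring thus ran from 3 structural genes through the 3 proteolytic ones to PSMB2 in both libraries.

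The base of the cap had a median of 115 and 94.7. Among its 6 ATPases, PSMC5 (195 and 174), PSMC3 (187 and 154) and PSMC2 (152 and 145) were higher in both libraries than PSMC6 (87.3 and 85.7), PSMC1 (73.4 and 72.7) and PSMC4 (58.5 and 48.1). These groups did not overlap when the whole locus was counted. The named transcript of PSMC2 alone was at 61.2 and 59.8, below PSMC6 and PSMC1 in both libraries. The scaffold subunits of the base differed from each other, with PSMD2 at 197 and 169.5 and PSMD1 at 60.5 and 64.6. PSMD4, a ubiquitin receptor, was between them at 115 and 94.7.

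Lid genes were lower, with a median of 61.8 and 62.7. In each library 7 of the 8 were below the median of the 14 core genes (129 in replicate 1 and 113 in replicate 2). PSMD8 was the exception in both, at 160 and 118. PSMD3 followed at 127 and 97.4 and PSMD7, the catalytically inactive partner of PSMD14, at 83.1 and 80.6. PSMD14 itself, the deubiquitinase, was at 54.7 and 52.0. PSMD12 (64.5 and 69.2), PSMD6 (59.0 and 56.2), PSMD13 (48.0 and 43.0) and PSMD11 (35.9 and 33.2) filled the rest of the range. These 8 lid genes spanned a 4.45-fold range in replicate 1 and a 3.56-fold range in replicate 2. SEM1, a lid subunit outside the symbol rule, was above all of them, at 321 and 287.

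Over the 31 constitutive subunits, which leave out SEM1 and ADRM1, the level ranged 8.10-fold in replicate 1 and 7.10-fold in replicate 2. In these libraries 23 and 27 of the 31 were within 2-fold of their median. PSMA5, PSMB2, PSMD11 and PSMD13 were under that range in both libraries. The SD of log2 (FPKM + 1) was 0.83 and 0.77, beside 1.74 and 1.68 over all detected genes. Their order was much alike in the libraries (Spearman's rho across genes 0.97), but neighbours in it were often not separable. For 20 of the 30 adjacent pairs the ranges of the 2 libraries overlapped, and 8 of these 20 kept 1 order within each library. Of all 30 pairs, 18 had the same order in both.

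The level moved with transcript length. Across the 31 genes, Spearman's rho of FPKM with the length of the highest named transcript (that with the most FPKM among those with the gene's name) was −0.60 in replicate 1 and −0.55 in replicate 2, beside −0.24 and −0.17 across all detected genes. For PSMC2 the highest transcript of all is a shorter unnamed model. With the highest transcript of any kind, rho over the 31 genes was −0.65 and −0.61. These points share a library and are not independent. A group of 5 subunits with a highest named transcript of 3000 bases or more, a limit chosen after the values were seen, had a median of 41.3 and 33.8, and the other 26 had a median of 125 and 99.8. PSMB2 (4744 bases), PSMD11 (3897 bases) and PSMA5 (3826 bases) were in the long group and were the 3 lowest subunits, while PSMD2 (3060 bases) was among the highest. The part of length in the order was not tested.

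The 3 immune subunits were expressed far below the subunits they replace. PSMB8 stood at 32.2 in replicate 1 and 24.98 in replicate 2, PSMB10 at 22.8 and 12.998, and PSMB9 at 5.27 and 4.12. All 3 were below PSMB2, the lowest constitutive beta gene, in each library. In bulk RNA, fewer cells expressing a gene and less RNA per cell cannot be told apart.

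PSMB5 exceeded PSMB8 4.23-fold in replicate 1 and 4.09-fold in replicate 2, a log2 ratio of PSMB8 to PSMB5, after adding 1 to each FPKM, of −2.02 ± 0.04. PSMB7 exceeded PSMB10 5.47-fold and 6.94-fold, with a log2 ratio of −2.55 ± 0.22. The widest gap was between PSMB6 and PSMB9, 18.99-fold and 18.4-fold, with a log2 ratio of −3.96 ± 0.08. The deposited bounds of the genes in each pair did not overlap in either library. As a share of the pair's FPKM, the immune gene held 19.1% and 19.6% for PSMB8, 15.5% and 12.6% for PSMB10, and 5.00% and 5.17% for PSMB9. The same order, PSMB8 first and PSMB9 last, held in both libraries. With 2 libraries of 1 group, no test of these differences was made.

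**Figure D2:**
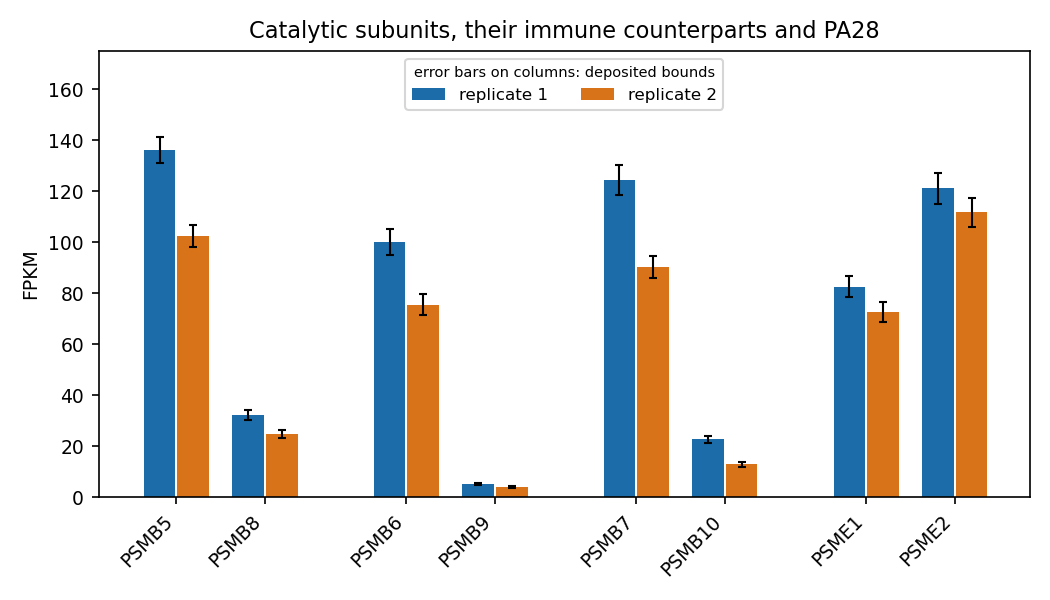
FPKM of each proteolytic subunit beside its immune counterpart, and of both PA28 genes, as columns for replicate 1 (blue) and replicate 2 (orange) with the deposited confidence bounds. PSMB8, PSMB9 and PSMB10 do not exceed 32.2 in either library, whereas PSME1 and PSME2 are at 72.7 or more.

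PA28 did not share this low level. PSME2 stood at 121 in replicate 1 and 112 in replicate 2, and PSME1 at 82.6 and 72.7, so both were above all 3 immune subunits. Their genes lie 4397 bases apart on chromosome 14, and the listed transcripts of PSMB8 and PSMB9 are 9225 bases apart on chromosome 6. The nuclear activator PSME3 was at 57.6 and 52.9, the PA200 gene PSME4 at 31.3 and 37.1, and PSMF1, whose product PI31 inhibits the core in vitro, at 55.7 and 42.6. The whole class had a median of 57.6 and 52.9.

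Genes that lead from interferon to the immune subunits, listed here with the transporter genes TAP1 and TAP2, were present at varied levels. IFNG itself was listed at 0, and 7 of the 8 listed genes were detected in both libraries, beside 41.8% of all named genes. The receptor kinase JAK1 stood at 29.3 and 32.5 and JAK2 at 1.5001 and 1.75. Further along, the transcription factor IRF1 was at 5.75 and 4.39 and NLRC5, a coactivator of MHC class I genes, at 2.05 and 1.69. The peptide transporter genes TAP1 (17.4 and 13.1), which shares its start region with PSMB9, and TAP2 (22.3 and 16.5) were above PSMB9 in both libraries.

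Markers of blood cells, which make immune subunits without induction, were read beside these levels. All 6 blood markers were under FPKM 1 in both libraries, and their sum was 0.318 in replicate 1 and 0.366 in replicate 2. Of 10 bone and mesenchyme markers 7 were detected, with SPARC at 312 and 297, while SP7, BGLAP and IBSP, markers of maturing bone cells, were under 1. BGLAP, unlike SP7 and IBSP, was flagged at a locus with several symbols, so its value rests on its own transcripts alone. Endothelial markers were under 1 (0 of 2 detected), and of 3 epithelial markers EPCAM (11.98 and 13.8) and CDH1 (2.36 and 1.17) were detected.

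Assembly chaperones, which bind subunits while the particle is built and then leave, were mostly low. Their median was 20.8 in replicate 1 and 19.7 in replicate 2, and 7 of 8 were below the median of the constitutive subunits in each library. Those that act on the base, PSMD5 (21.4 and 22.0), PSMD10 (15.3 and 15.4) and PSMD9 (14.8 and 12.7), were all below PSMA5, the lowest constitutive subunit. Those that act on the core covered a 13.5-fold range in replicate 1 and a 17.6-fold range in replicate 2. PSMG2, the partner of PSMG1 in the dimer that starts the alpha ring, was at 179 and 173, whereas PSMG1 was at 20.2 and 17.5. PSMG3 (56.8 and 44.1) also exceeded its own dimer partner PSMG4 (13.3 and 9.83). POMP, which helps the beta ring form and is degraded by the finished particle, stood at 47.1 and 41.4.

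The level of PSMG2 was a sum over transcripts with different starts. Its 982-base transcript, which held 68.9% of the locus FPKM in replicate 1 and 84.9% in replicate 2, starts at 12658739 on chromosome 18, far upstream of the 1124-base transcript at 12702988, and annotated exons of the gene overlap those of CEP76 by 468 bases and of SPIRE1 by 92 on the opposite strand. CEP76 stood at 22.0 in both libraries. The 1124-base transcript alone was at 55.8 and 26.2, still above PSMG1 in both. The strand setting of the quantification is not given in the sources used here. Reads of genes on opposite strands may therefore not have been told apart.

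In the GENCODE 29 annotation, counting all its transcripts, exons of 14 of the 51 genes overlap those of another expressed gene. The longest overlaps were those of PSMC1 with NRDE2 (4671 bases), PSMG4 with SLC22A23 (1388), PSMC5 with FTSJ3 (874) and PSMC3IP with MLX (770), all on opposite strands. PSMC5, at 195 and 174, was well above FTSJ3, at 31.0 and 31.3. PSMD9 shares 436 bases with CFAP251 on the same strand, and annotated exons of PSMB8 and PSMB9 overlap by 139 bases, although the transcripts listed in the files do not meet. The annotated transcripts can be longer than those quantified, so these lengths do not measure how uncertain a level is.

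Most members were read from 1 transcript. In 33 genes a single transcript was above 0 in both libraries, and in 33 the highest transcript held 90% or more of the locus FPKM in both. The highest transcript was the same in both libraries for 47 genes and changed for PSMG1. There the 1140-base transcript led with 42.4% in replicate 1 and the 1077-base one with 49.2% in replicate 2.

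Proteolytic subunit PSMB5 was split between a 941-base transcript (64.6% and 75.6%) and a 1294-base one. In the alpha ring, PSMA4 was led by a 1144-base transcript (79.5% and 89.8%). The scaffold gene PSMD2 held 65.5% and 62.2% in its 3060-base transcript, and the lid gene PSMD6 held 54.5% and 64.8% in its 1225-base one. The levels of some genes depended on which transcripts were added up. For the ATPase PSMC2, 59.7% and 58.8% came from a 735-base reference model, and the 2831-base transcript alone was at 61.2 and 59.8. For PSMF1, 78.9% and 72.8% came from a 1412-base model, and the 3695-base transcript alone was at 11.8 and 11.6. PSME4 drew 74.1% and 67.3% from its 7099-base transcript. PSMB2, PSMD12 and PSMD10 each had a further transcript above 0 in replicate 2, and PSMB10 an assembled 1038-base one (13.3%) in replicate 1.

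**Figure D3:**
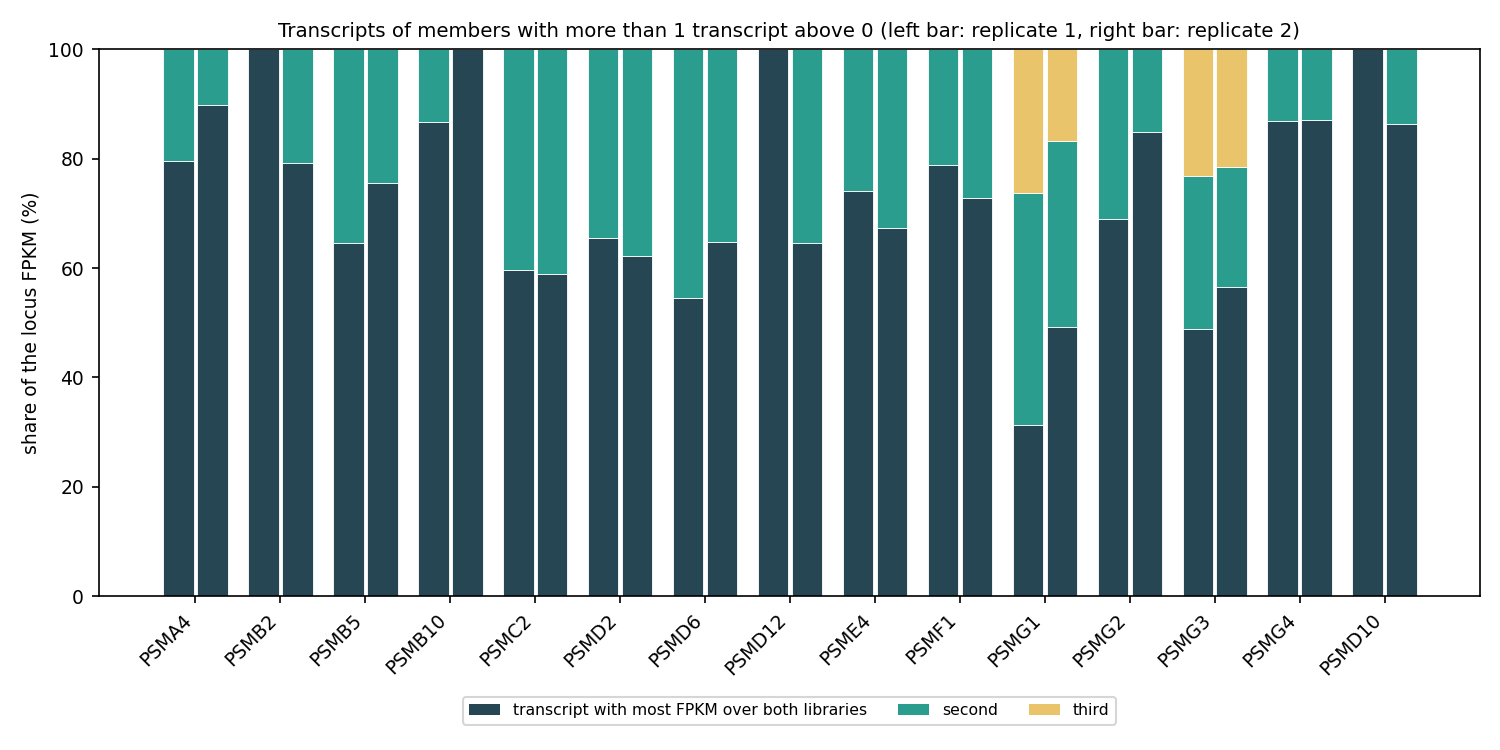
Share of the locus FPKM in percent held by each transcript of the 15 genes with more than 1 transcript above 0, with replicate 1 on the left and replicate 2 on the right of each pair. The leading transcript holds between 48.8% and 56.6% of PSMG3, and 86.9% and 87.02% of PSMG4, and the order of the first 2 transcripts turns for PSMG1.

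Between the libraries the set was shifted before any step for transcript length. After that step, described below, 24 of the 48 genes were higher in replicate 1, beside 49.9% of all genes. Of the 48 genes compared, 43 were higher in replicate 1, beside 55.9% of all 12427 genes compared, and the median log2 ratio of replicate 2 to replicate 1, after adding 1 to each FPKM, was −0.19, beside −0.04 over all genes. The exceptions, higher in replicate 2, were PSME4, PSMD12, PSMD1, PSMD5 and PSMD10. No member differed by a log2 ratio of 1 or more with bounds apart, a rule that 1.21% of all genes met. The largest ratio was that of PSMB10, −0.76, whose level in replicate 1 included an assembled transcript at 3.02. The named transcript of PSMB10 alone was at 19.7 in replicate 1 and 12.998 in replicate 2. Bounds alone were apart for 30 of 48 members, beside 56.2% of all genes, and 29 of the 48 had bounds apart and were higher in replicate 1, beside 34.2% of all genes.

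All 7 constitutive beta genes were higher in replicate 1 with bounds apart, and their median log2 ratio was −0.41. PSMB3, at −0.61, and PSMB4, at −0.50, had the widest gaps in the ring. Among the 6 ATPases the median was −0.11, in the lid −0.09 and in the alpha ring −0.17. Across all genes the ratio rose with transcript length (Spearman's rho 0.43) and fell with GC content (−0.59), and across the members the values were 0.42 and −0.65. Members were short, with a median length of 1448 bases against 2846 over all genes, and their median GC content was 49.3% against 49.0%. After the median of genes of similar length was subtracted, 24 of 48 members were higher in replicate 1, beside 49.9% of all genes. The median over members was −0.02. The median then turned to 0.08 in the alpha ring, 0.03 in the base, 0.04 in its ATPases, 0.07 in the lid, 0.06 in activators and inhibitor and 0.04 in chaperones, and was −0.11 in the immune subunits. After the same step for GC content, 42 of the 46 members with a value were higher in replicate 1, beside 49.9% of all genes. The median over these members was −0.14. In the constitutive beta ring, 6 of 7 stayed lower in replicate 2 after the step for length with a median of −0.20, and PSMB1 was the exception at 0.09.

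**Figure D4:**
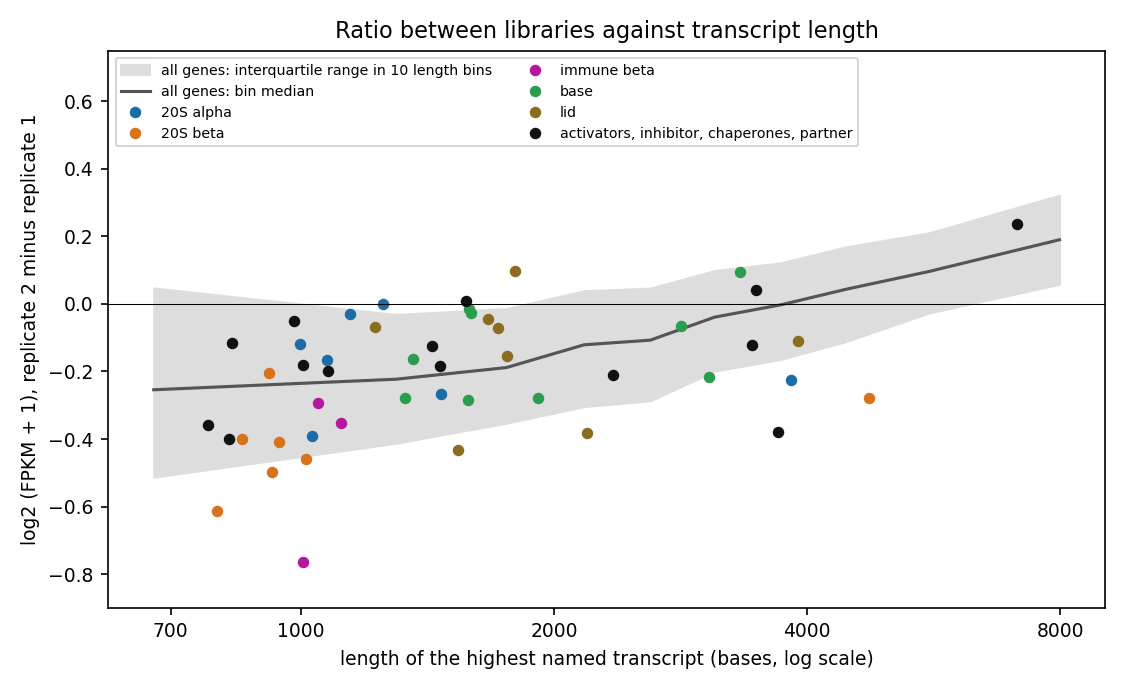
Difference in log2 (FPKM + 1), replicate 2 minus replicate 1, against the length in bases (log axis) of the highest named transcript for the 48 members, as points coloured by class, with the median (line) and interquartile range (band) of all genes in 10 length bins. The line rises with length, and all 7 beta genes lie below 0. PSMB10, whose level in replicate 1 includes an assembled transcript, is the lowest point at −0.76.

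Genes of proteins that bind the proteasome but fall outside the symbol rule were all detected, 11 of 11, beside 41.8% of all named genes. SEM1, a small lid subunit also known as DSS1, was above every member, at 321 and 287. The ubiquitin receptor ADRM1 stood at 82.0 and 57.2. Both cap-bound deubiquitinases were lower, USP14 at 26.1 and 26.6 and UCHL5, which ADRM1 recruits, at 2.36 and 2.12. AKIRIN2, which brings proteasomes into the nucleus, was at 17.1 and 15.2.

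Genes of shuttle receptors, which carry tagged proteins to the cap, were detected in 5 of 6 cases, beside 41.8% of all named genes. RAD23B was highest, at 79.9 and 81.9. The exception, DDI2, was at 4.0005 in replicate 1 and listed at 0 in replicate 2. DDI2 was flagged at a locus with several symbols, where only a gene's own transcripts are summed, without bounds. DDI2 is also the protease that activates NFE2L1. On that route NFE2L1 stood at 56.6 and 49.2 and the segregase VCP at 128 and 116, while the entry of SYVN1 was 0 in both. The ubiquitin genes RPS27A, at 884 and 732, and UBB, at 605 and 482, were above every subunit in both libraries. The activating enzyme gene UBA1, which starts the transfer of ubiquitin, was at 172 and 147, and UBA6 at 20.2 and 24.4.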

How the data were processed

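Poly(A) RNA of 2 libraries was measured, each with a gene and a transcript table. The authors deposited FPKM with confidence bounds and a status, and a read coverage (signal) per transcript, per the file headers. The submitters' processing notes name Cufflinks 2.2.1, Bowtie2 2.2.3, TopHat2 2.0.13, FastQC 0.11.2 and Trimmomatic 0.32, and GRCh38. The sources used here give no annotation release or strand setting.

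Symbols came from the RefSeq accession of each transcript (46174), GENCODE 29 cross-references (390) or the files (21269), and 27547 transcripts stayed unnamed. A gene's FPKM is that of its locus. Where a locus held several symbols (724 symbols), the gene's own transcripts were summed without bounds. Failed genes (44) were left out, which left 28192. Exon overlaps were read from GENCODE 29 on GRCh38, and start windows from RefSeq. Absolute depth is unknown. Median coverage per FPKM was 5.78 (replicate 1) and 5.57 (replicate 2), and the median over member transcripts was 328 and 244.

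Detection meant FPKM 1 or more. Ratios are log2 of (FPKM + 1), which understates changes of low genes, among genes at 1 or more in at least 1 library. Length and GC steps subtracted the median of 20 bins, and 82.2% of compared genes had a GC value. No p-value was computed. Every gene of the symbol rule and of the further lists could be named, and some list genes are not reported here. Members and lists were chosen with earlier results of these data known. The tools were matplotlib 3.10.9, scipy 1.17.1, numpy 2.4.6 and pandas 2.3.3 under Python 3.11.15. The code of the ratio rule was checked on simulated data, which does not show its error rate in these libraries. Alternatives changed the pseudocount, scaling, filter, transcripts, overlaps and libraries used.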

Additional observations from a re-analysis of the deposited data

How the results depend on the processing

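No paired analysis was possible because both libraries belong to 1 group. Class medians moved by more than the spread between libraries as follows. Rescaling each library to the same sum gave 108 for the alpha ring, 55.8 for the lid, 49.6 for activators and inhibitor and 18.2 for chaperones. Named transcripts alone gave 86.5 for the base and 18.5 for chaperones. Without members that overlap an expressed gene, the lid was at 66.8, activators and inhibitor at 49.2 and chaperones at 21.7. The log2 ratio of PSMB9 to PSMB6 was −4.19 with a pseudocount of 0.1 and −4.22 with none. The median log2 ratio of replicate 2 to replicate 1 was −0.20 with a pseudocount of 0.1, −0.27 after rescaling, −0.18 with no filter on low values, −0.17 with named transcripts and −0.21 without overlapping members. It was −0.018 after the length step, with 24 members higher in replicate 1, and −0.14 after the GC step, an alternative chosen after seeing the data. After the length step, which for classes was also chosen after seeing the data, the class medians of this ratio turned from below 0 to 0.077 (alpha ring), 0.028 (base), 0.039 (ATPases), 0.073 (lid), 0.062 (activators and inhibitor) and 0.037 (chaperones). The median of the core chaperones turned likewise, from −0.20 to 0.03. That of the base chaperones went from 0.01 to −0.07 after the GC step. Single genes also turned, such as PSMD12, from 0.098 to −0.034 after the GC step. No other class median, pair ratio or set-wide ratio changed direction. Leaving out 1 of 2 libraries leaves the other's value and says nothing of stability. The cause of these shifts was not tested. Unknown depth limits how firmly levels near FPKM 1 can be read.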

Other observations

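PSMB8-AS1, an antisense gene at the PSMB8 locus that the symbol rule leaves out, was listed at 0 in both libraries. PSMB3, PSMB8 and PSMB9 also have copies on alternate contigs, and these were listed at 0 throughout. The 51 genes lie on 18 chromosomes, with 8 on chromosome 14 and 8 on chromosome 17. PSMB11 lies 6946 bases from PSMB5 on chromosome 14, and of these neighbours PSMB5 was at 136 and 102 while PSMB11 stood at 0.00774 in replicate 1 and was listed at 0 in replicate 2.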
